A study of Mus musculus with 12 samples.

Results

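The regions described here are the c-Fos binding sites that lie deep inside the longest genes of the mouse genome. They were mapped in CA1, the pyramidal cell field at the output end of the hippocampal circuit, after kainic acid, a glutamate receptor agonist that provokes intense firing. A peak belonged to the set when its midpoint lay inside a protein-coding gene of 500 kb or longer, and more than 1 kb from both ends of every protein-coding gene. The rule held for 378 of 3294 peaks on chromosomes 1 to 19 and X (11.5%, exact binomial 95% interval 10.4 to 12.6), out of 3295 in the deposited list. It used gene length and position only, so the number, spacing, width and place of the peaks within these genes are open to description. Genes were taken from RefSeq on GRCm38.p6, the assembly named mm10 in genome browsers, and positions are 1-based on it.

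All animals were C57BL/6 mice of 3 to 4 weeks with the genotype CaMK2a-Cre/+; LSL-Sun1-GFP/+. In these mice Cre driven by CaMK2a switches on a green fluorescent tag of the nuclear envelope, so that the nuclei of excitatory neurons, in which CaMK2a is chiefly active, can be sorted by flow cytometry. The 12 samples formed 4 groups of 3 replicates: 2 to 3 h of kainic acid or of PBS, the saline control, each profiled with a polyclonal c-Fos antibody made in-house (1096AE) or with rabbit IgG, on 50000 sorted nuclei per reaction. The labels do not say how many animals went into a replicate. CUT&RUN uses an antibody to tether a nuclease that releases the bound DNA. Only 1 list was analysed, of the c-Fos peaks of the kainic acid group that its name calls replicated over IgG. It gives positions and no signal, so there is no value per replicate, no depth and no test between animals. Peaks after PBS were not analysed here, and the identity of the nuclei could not be checked from positions.

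c-Fos pairs with Jun proteins to form AP-1, a transcription factor that neurons make soon after strong firing and that binds mostly at enhancers, away from promoters. Very long genes are a neuronal speciality: many encode adhesion molecules, synaptic scaffolds, channels and RNA-binding proteins, and most of their length is intron. An enhancer in such an intron can lie far from any promoter while still being inside the gene. Exons and introns were not told apart here.

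Few of the 378 peaks touched an annotated transcription start. The rule kept midpoints more than 1 kb from the ends of protein-coding genes, so mainly internal and non-coding starts could be touched. Dropping this distance also gave 378 peaks, so it left out no peak inside these genes. The share of length under start windows was not measured, so this low number has no background beside it. RefSeq start windows, each with 250 bases before and 50 after a start, overlapped 4 of the 378 peaks. They are shown because in the RefSeq window table, which does not cover every chromosome, no other peak deep inside a very long gene met a start window. The 50 bases from the start onwards are in capitals, and each window reads along its own transcript.
Anks1b, internal start: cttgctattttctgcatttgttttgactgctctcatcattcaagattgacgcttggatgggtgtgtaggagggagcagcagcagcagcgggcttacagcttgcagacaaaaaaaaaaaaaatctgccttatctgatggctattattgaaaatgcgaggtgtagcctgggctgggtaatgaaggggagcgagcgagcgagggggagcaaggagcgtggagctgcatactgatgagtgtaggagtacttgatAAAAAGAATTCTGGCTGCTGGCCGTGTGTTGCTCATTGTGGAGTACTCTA
Gm32703, inside Pde4d: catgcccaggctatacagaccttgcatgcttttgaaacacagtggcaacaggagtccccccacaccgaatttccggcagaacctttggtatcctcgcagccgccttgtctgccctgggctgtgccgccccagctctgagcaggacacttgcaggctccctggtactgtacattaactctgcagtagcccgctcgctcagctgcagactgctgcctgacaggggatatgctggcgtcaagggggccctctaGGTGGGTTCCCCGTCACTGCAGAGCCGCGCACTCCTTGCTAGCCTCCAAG
Gm52234, inside Rbfox1: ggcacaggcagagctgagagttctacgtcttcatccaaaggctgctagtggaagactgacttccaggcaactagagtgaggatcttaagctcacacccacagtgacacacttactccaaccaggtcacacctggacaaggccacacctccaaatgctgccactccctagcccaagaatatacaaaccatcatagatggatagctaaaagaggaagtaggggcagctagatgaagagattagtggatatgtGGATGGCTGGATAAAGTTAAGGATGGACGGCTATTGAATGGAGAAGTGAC
Gm52766, inside Magi2: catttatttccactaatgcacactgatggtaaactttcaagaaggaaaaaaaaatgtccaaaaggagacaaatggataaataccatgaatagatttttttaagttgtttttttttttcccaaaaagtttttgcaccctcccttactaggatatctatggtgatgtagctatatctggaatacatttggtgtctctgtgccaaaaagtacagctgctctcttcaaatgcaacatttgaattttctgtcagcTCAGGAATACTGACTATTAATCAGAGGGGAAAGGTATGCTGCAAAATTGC

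The Anks1b window (chr10:90576441-90576740, plus strand) belongs to the gene itself. Anks1b encodes a postsynaptic density protein, and RefSeq lists 5 starts for it. The start shown lies 703.8 kb into the gene of 1100.4 kb. A peak of 1176 bp (chr10:90576163-90577338) covered the whole window, and its midpoint was 59.5 bp from the start. The other 3 windows belong to uncharacterised genes on the strand opposite to their host gene. Gm32703 (chr13:109440962-109441261, minus strand) lay wholly under a peak of 1524 bp in Pde4d, 787.1 kb from the start of that gene. A further start listed for Gm32703, 85 bases away, lay under the same peak. Gm52234 (chr16:5946084-5946383, minus strand) had 254 of its 300 bases under a peak in Rbfox1. Gm52766 (chr5:19745484-19745783, minus strand) had 258 bases under the Magi2 peak nearest to that gene's start.

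The windows differed in composition. Gm32703 had 60.3% G and C and 11 CpG dinucleotides, the Anks1b window 48.0% and 8, Gm52234 48.3% and 2, and Gm52766 34.7% and 0. The median over all 32851 start windows was 52.7% and 7. Neither the AP-1 letters TGANTCA nor the cAMP response element TGACGTCA, each its own reverse complement, occurred in these windows. Among all windows 7.81% held the first and 1.79% the second. This says only that the letters are not in these 300 bases, since the sequence of the peaks outside the windows was not analysed here.

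The density of peaks inside very long genes was within counting error of that inside genes of intermediate length, and higher than inside shorter genes or outside genes. Genes of 500 kb or longer held 1.99 peaks per Mb (exact Poisson 95% interval 1.80 to 2.203) over 189.8 Mb. Genes of 100 to 500 kb held 1.89 per Mb (1.76 to 2.03, 787 peaks), an interval that overlaps the first. Genes under 100 kb held 1.145 per Mb (1.04 to 1.26, 434 peaks) and the sequence outside protein-coding genes 0.982 (0.932 to 1.03, 1475 peaks). Both of these intervals lie below that of the very long genes. Within 1 kb of gene ends, 2.82 peaks per Mb (2.46 to 3.22, 220 peaks) were found. These intervals cover counting error over peaks in 1 list, treat clustered peaks as independent, and are no test between animals.

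The surroundings of very long genes were less dense than their interior. Within 500 kb on either side, and outside every gene of this length, lay 274 peaks, or 1.29 per Mb (1.145 to 1.46). Without Dlgap1, Syt1, Magi2 and Celf2, which held many peaks, the interior had 1.63 per Mb (1.45 to 1.82). That interval just overlaps the one of the surroundings. Over the whole span examined the density was 1.28 per Mb.

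**Figure D1:**
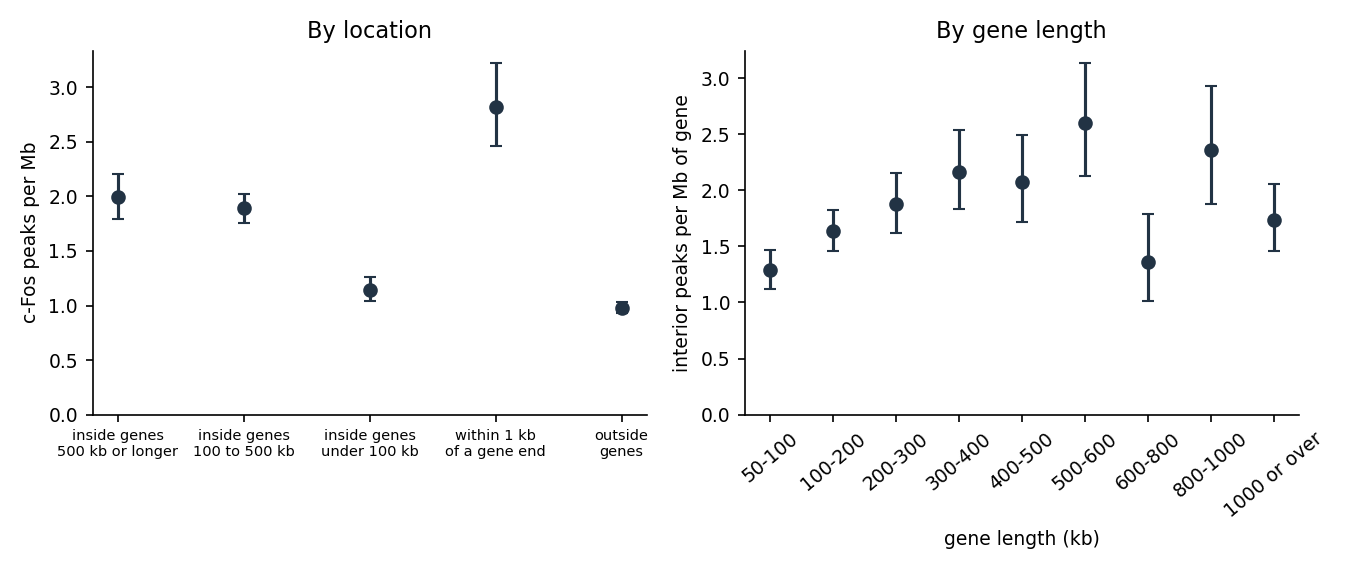
Left, c-Fos peaks per Mb (y axis) by location, and right, interior peaks per Mb of gene by gene length in kb (x axis); points are counts divided by length and bars are exact Poisson 95% intervals. Genes of 500 kb or longer (1.99 per Mb) and of 100 to 500 kb (1.89) overlap, and among genes over 500 kb the bins do not follow length.

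Density did not climb steadily with length. Per Mb of gene, it was 1.285 in genes of 50 to 100 kb, 1.63 at 100 to 200 kb and 1.88 at 200 to 300 kb. It was 2.16 at 300 to 400 kb and 2.08 (1.715 to 2.49) at 400 to 500 kb. Above 500 kb it went from 2.60 (2.13 to 3.14, 75 genes of 500 to 600 kb) to 1.36 (1.01 to 1.79, 54 genes of 600 to 800 kb). It was 2.36 (1.88 to 2.93) in 39 genes of 800 to 1000 kb and 1.74 (1.46 to 2.05) in the 59 genes beyond. Syt1 lies in the 500 to 600 kb bin, and Dlgap1 and Celf2 in the 800 to 1000 kb bin. Without Dlgap1 and Syt1, the density of all very long genes was 1.76 per Mb (1.57 to 1.96). Without Magi2 and Celf2 as well it was 1.63 (1.45 to 1.82, 303 peaks).

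Most very long genes held at least 1 peak. Of 227 such genes, 141 (62.1%, interval 55.5 to 68.5) did, against 4.90% of all 21523 protein-coding genes and 23.7% of the 2198 genes of 100 to 500 kb. A longer gene offers more room for a peak, so these shares follow length as well as density. The share was 54.7% at 500 to 600 kb and 72.9% at 1000 kb and over. A single peak was found in 70 genes, 2 peaks in 35, 3 or 4 peaks in 12 and 6 genes, and 86 genes were credited with none. Each peak was credited only to the longest gene over it. A gene inside a longer one, such as Schip1 inside Iqschfp, could thus hold peaks and count among these 86. The 141 genes with a peak are therefore a minimum. Across the 227 genes, length and peak number were weakly related (Spearman's rho 0.20, Pearson's r 0.14, a description across genes that share 1 peak list).

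A small number of genes held a large part of the set. The 10 genes with most peaks held 129 of 378 (34.1%, interval 29.4 to 39.2), and the first 4 alone held 75 (19.8%). At least 5 peaks lay in 18 of the 227 genes (7.93%, against 0.149% of all protein-coding genes), and these 18 held 178 peaks (47.1%). Peak number per gene had a mean of 1.67 and a variance of 9.28.

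**Figure D2:**
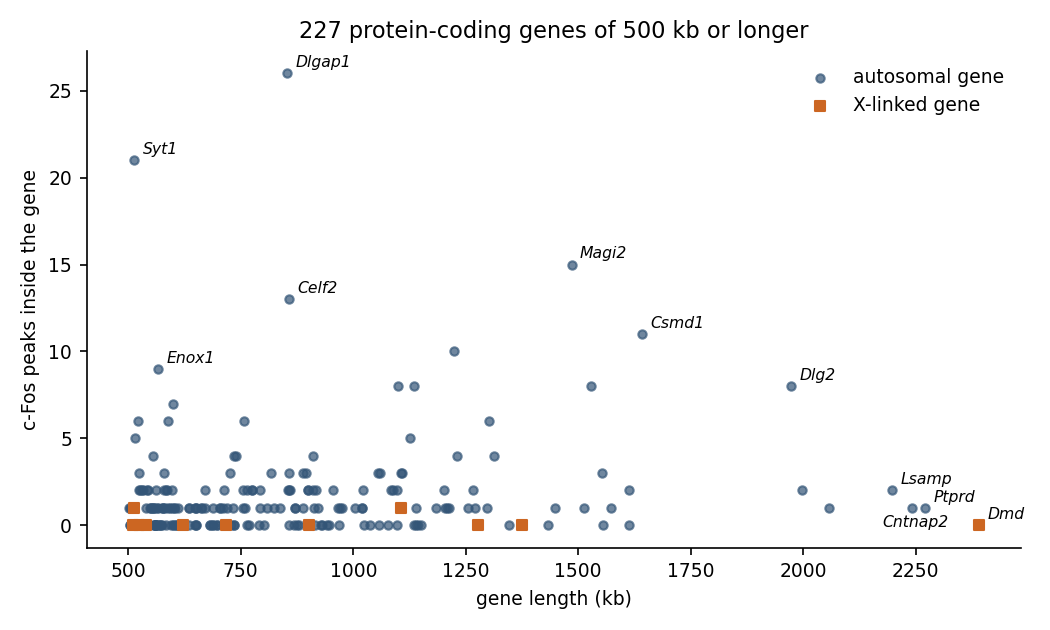
Number of c-Fos peaks inside each of the 227 protein-coding genes of 500 kb or longer (y axis) against gene length in kb (x axis). Each point is a gene, squares are X-linked, and each peak counts only for the longest gene over it. Dlgap1 (26 peaks) and Syt1 (21) stand above all others although neither is among the longest genes.

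Postsynaptic scaffold genes came first. Dlgap1 encodes a protein that links the PSD-95 layer of the postsynaptic density to Shank, and held 26 peaks in 852.3 kb, or 30.5 per Mb. The 500 kb on either side held 3 peaks. With the gene cut into 5 equal segments from its start, these held 5, 6, 9, 5 and 1 peaks. Of the 26, 15 had another peak within 10 kb. The run with most peaks, 4 at chr17:70378551-70389426, lay near the middle of the gene, and peaks filled 70.6% of 10.9 kb. A run of 3 at chr17:70003036-70010903 lay near the start, with its first peak centred 35.5 kb into the gene, and included the widest peak of the gene at 3126 bp.

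Magi2 encodes a membrane-associated scaffold of synapses with several PDZ domains. It held 15 peaks in 1485.4 kb (10.1 per Mb) and none in the 500 kb on either side. The distribution was lopsided: the last of 5 equal segments held 10 peaks, and the first 526.6 kb held none. A run of 4 lay at chr5:20562268-20583951. Dlg2, which encodes the PSD-93 scaffold, showed the opposite arrangement, with 8 peaks scattered over 1973.1 kb (4.06 per Mb) and a median gap of 200.5 kb between neighbours. None of the 8 had another peak within 10 kb. Dlgap2, a paralog of Dlgap1, held 6 peaks in 757.7 kb (7.92 per Mb). Magi1, a paralog of Magi2 with 608.5 kb, and Sntg1, a syntrophin gene, held none, and Grip1, which encodes an AMPA receptor binding protein, held 1.

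Among genes of transmitter release, Syt1 stood far from the rest. It encodes synaptotagmin 1, the calcium sensor of synaptic vesicles, and was the densest of all very long genes with 21 peaks in 513.3 kb (40.9 per Mb). No peak lay within 500 kb outside it. From the start, the 5 equal segments held 2, 2, 5, 9 and 3 peaks, and 16 of the 21 lay beyond the middle of the gene. The peak nearest to the start was centred 5.54 kb into the gene (chr10:109004796-109006087). Of the 21, 11 had another peak within 10 kb, and 11 were 2 kb or wider. The longest run, 4 peaks at chr10:108724970-108745232, spanned 20.3 kb. Erc2, which encodes an active zone protein, held 3 peaks. Rims1 and Unc13c, which encode proteins that tether and prime vesicles, held none.

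RNA-binding protein genes included another pair of peak-rich genes. Celf2 encodes a regulator of splicing and mRNA stability and held 13 peaks in 856.6 kb (15.2 per Mb). Its peaks were crowded towards the start: 7 lay in the first of 5 equal segments, 10 before the middle of the gene and none in the last 340.4 kb. It also had the widest peak of the whole set, 3846 bp at chr2:7232619-7236464. Rbfox1, which encodes a neuronal splicing factor, held 8 peaks in 1527.7 kb (5.24 per Mb), the first centred 60.9 kb from its start. A stretch of 574.4 kb separated the last peak from the one before it. Khdrbs2 held 2 peaks and Rbms3, with 1057.2 kb, none.

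**Figure D3:**
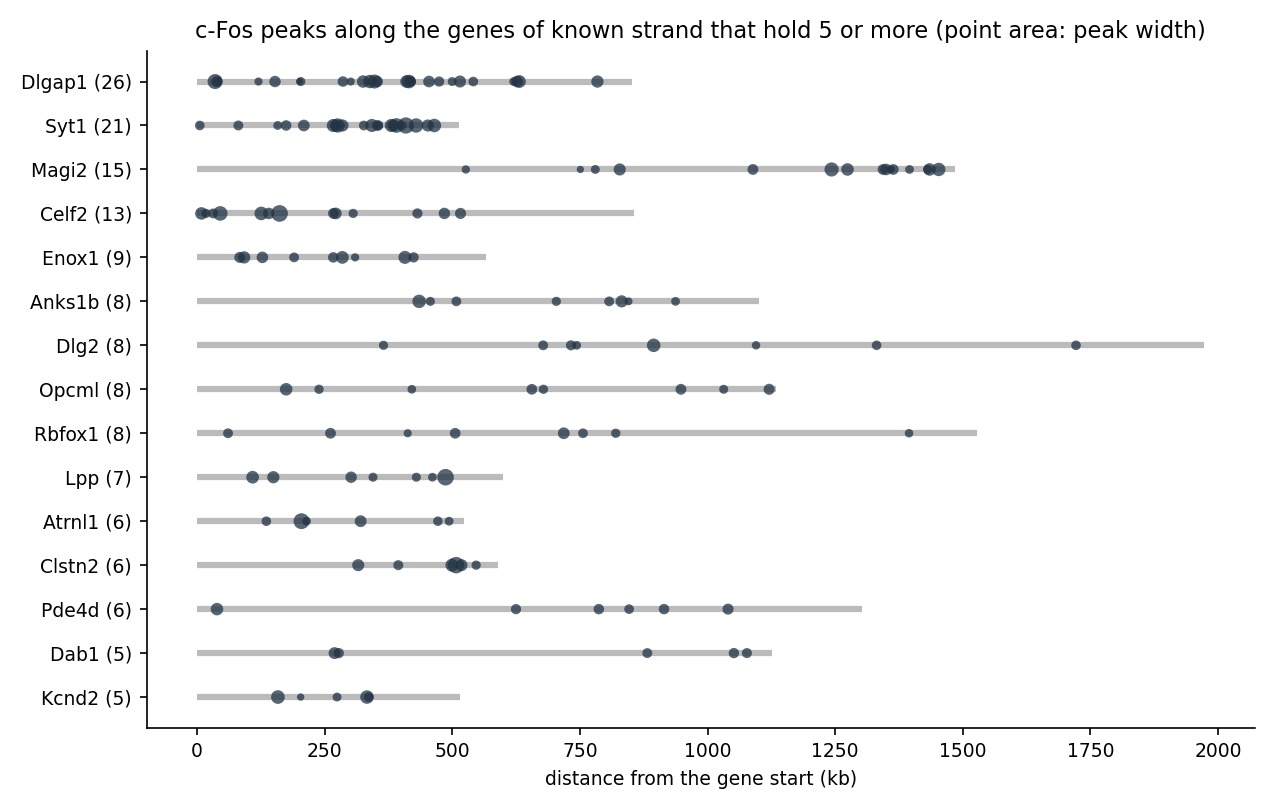
Peaks along the 15 genes of known strand that hold 5 or more, as distance in kb from the gene start (x axis); grey bars are the genes and point area is proportional to peak width. Peaks crowd towards the start of Celf2 and the far end of Magi2, and are spread out in Dlg2 and Rbfox1.

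The genes listed under adhesion and axon guidance formed the largest group of very long genes but were not dense. The list is broad and does not hold every adhesion gene, since Clstn2, described below, is not in it. Of 50 such genes, 32 held a peak (64.0%), close to the 62.1% of all very long genes. They held 66 peaks in 54.7 Mb, or 1.21 per Mb (0.934 to 1.54), below the 1.96 (1.77 to 2.17) of all very long genes per Mb of full gene length. Without Dlgap1, Syt1, Magi2 and Celf2, the density of all very long genes was 1.63 per Mb of covered length (1.45 to 1.82). That interval overlaps the one of the adhesion genes. Opcml, which encodes a cell adhesion molecule of the IgLON family, led with 8 peaks in 1134.7 kb (7.05 per Mb). Nlgn1, a neuroligin gene, and Lrrc4c, Tenm2 and Tenm4 held 4 each. The longest genes of this list were nearly empty: Ptprd (2270.5 kb), Cntnap2 (2241.3 kb) and Lrp1b (2058.3 kb) held 1 peak each and Lsamp (2197.4 kb) 2. Robo2, an axon guidance receptor gene of 1555.5 kb, held none, as did Cdh12, Ptprt and Erbb4.

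Ion channel and receptor genes were near the average. Of 14 very long channel genes 8 held a peak (17 peaks, 1.60 per Mb, 0.934 to 2.57). Kcnd2, which encodes the A-type potassium channel Kv4.2, held 5 in 514.5 kb (9.72 per Mb), of which a pair at chr6:21547063-21552488 had midpoints 3512 bp apart. Cacna2d3, a calcium channel subunit gene, held 3. Kcnip4, which encodes an auxiliary subunit of Kv4 channels and is 1135.6 kb long, held none, nor did Cacna1c or Ryr2. Of 7 receptor genes 6 held a peak (9 peaks, 1.52 per Mb), with 2 each in Gabrg3, Grid1 and Grm8 and none in the kainate receptor gene Grik2.

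Signalling and gene regulation showed the same modest level. Of 11 cyclic nucleotide and kinase signalling genes 7 held a peak (14 peaks, 1.74 per Mb), led by Pde4d, a cAMP phosphodiesterase gene with 6 peaks in 1301.8 kb. One of these lay 39.2 kb from its start and the next 624.8 kb from it. Pde4b, its paralog of 519.9 kb, held none. Of 15 transcription and chromatin regulators 8 held a peak (13 peaks, 1.20 per Mb), with 3 in Auts2 and 2 each in Foxp1, Nfia and Sox5. Among 11 cytoskeleton genes 9 held one (14 peaks, 1.34 per Mb), with 3 in Ank2, which encodes an ankyrin. Of 21 genes for enzymes and other housekeeping roles 12 held one (33 peaks, 1.71 per Mb). Atrnl1 contributed 6 of these.

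The denser groups had lower densities without their leading genes, to different extents. The 7 scaffold genes together had 7.72 peaks per Mb (5.83 to 10.0), and 4.69 (3.16 to 6.69) without Dlgap1. Without Magi2 as well they had 3.05 (1.71 to 5.03). The 7 release genes had 5.47 per Mb (3.72 to 7.76), and 1.94 (0.930 to 3.57) without Syt1. The 4 RNA-binding protein genes had 5.79 (3.67 to 8.68), and 3.21 (1.54 to 5.90) without Celf2. The median number of peaks per gene was 6 for the scaffolds, 2 for the release genes, 5 for the RNA-binding proteins and 1 for each other group, as for all very long genes. No group was tested against the others, some hold as few as 4 genes, and a gene can count in more than 1 group. The lists were chosen with earlier results of these data known, so the order of the groups is no independent result.

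**Figure D4:**
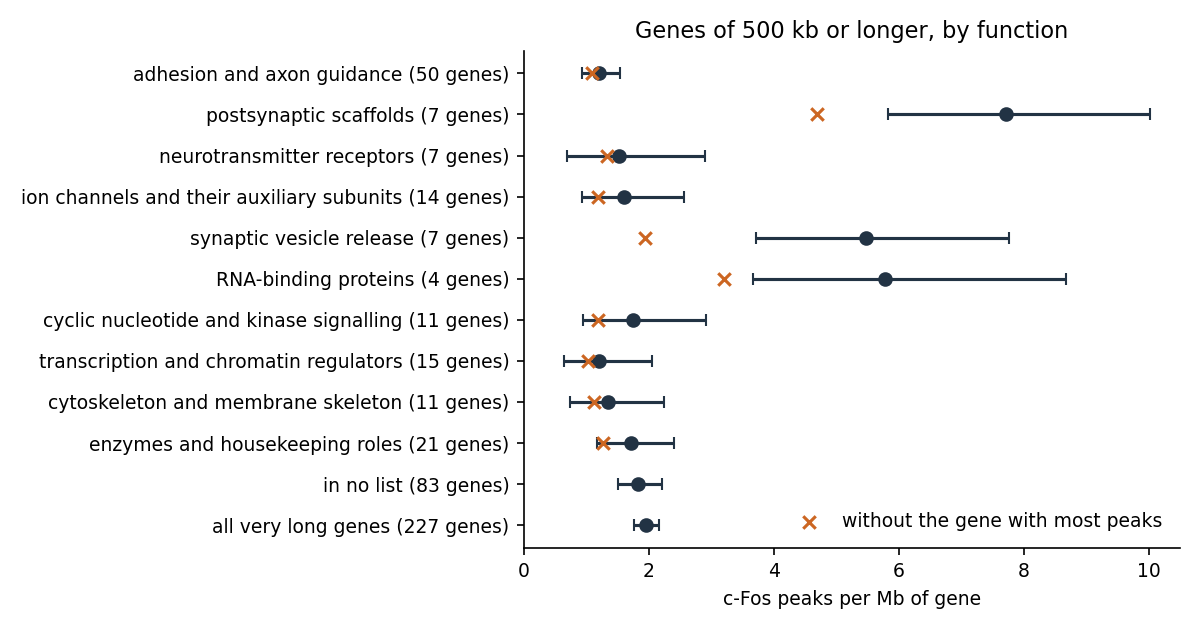
c-Fos peaks per Mb of gene (x axis) for genes of 500 kb or longer grouped by function; bars are exact Poisson 95% intervals, and crosses give the value without the gene with most peaks. Scaffold (7.72), release (5.47) and RNA-binding protein genes (5.79) lie highest, and each value moves down without its leading gene. The groups were chosen with earlier results of these data known.

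Several peak-rich genes belonged to no list. The 83 unlisted genes held 109 peaks (1.83 per Mb, 1.50 to 2.203). Csmd1, which encodes a large membrane protein with complement control domains, held 11 peaks in 1642.8 kb (6.70 per Mb), whereas its paralogs Csmd2 and Csmd3 held 1 each. All 11 were narrower than 2 kb and none had another peak within 10 kb. Enox1 held 9 in 565.5 kb (15.9 per Mb). Anks1b held 8, of which none lay in the first 435.2 kb. Lpp, which encodes a LIM domain protein of cell adhesions, held 7. Clstn2, which encodes the synaptic adhesion protein calsyntenin 2, held 6, all of them beyond the middle of the gene. Dab1, which encodes an adaptor of reelin signalling, held 5.

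In contrast to single genes, the set as a whole was spread close to evenly along the genes. Strand was known for 179 of the 227 genes and 315 of the peaks. From the start, 5 equal segments of each gene held 18.1% (interval 14.0 to 22.8), 20.3%, 20.3%, 22.5% and 18.7% of these peaks, against 19.9 to 20.0% of the length in each. Before the middle of the gene lay 148 of 315 (47.0%, interval 41.4 to 52.7). Without Dlgap1 and Syt1 they were 126 of 268 (47.0%).

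Distance to the nearer end of the host gene gave the same picture. The median was 209.0 kb and the longest distance 894.5 kb, in Dlg2. More than 100 kb from both ends lay 299 peaks (79.1%, interval 74.7 to 83.1), against 76.7% of the length. Of the 378, 273 (72.2%) were over 100 kb from the end of every protein-coding gene, their own and others. The share of length that far from every such end was not measured. In the first 1 to 10 kb from an end there were 9 peaks (2.24 per Mb, 1.02 to 4.25), and at 10 to 50 kb 28 (1.57, 1.04 to 2.26). The peak nearest to an end, in Gpc6, was 1.92 kb from it, and no peak was left out of these genes by the 1 kb rule. Peaks within 1 kb of their own ends were found at 3 of the 227 genes (1.32%, against 1.21% of all protein-coding genes), each peak lying outside the gene. At the length limit, Edil3 (501.8 kb) just inside held 1 peak and Dock1 (503.0 kb) none, whereas Lrrc7 (494.8 kb) just outside held 4 and Dnm3 (495.9 kb) none.

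Close spacing was a property of a few genes. Of the 378 peaks, 56 (14.8%, interval 11.4 to 18.8) had another peak midpoint within 10 kb, compared with 13.1% (10.8 to 15.7) in genes of 100 to 500 kb and 12.5% (10.9 to 14.3) outside genes. The 56 peaks lay in 12 genes and formed 23 runs, 7 of them with 3 or more peaks. Dlgap1 and Syt1 held 26 of the 56, and without these genes the share was 9.06% (6.20 to 12.7). Of 237 gaps between neighbouring peaks of a gene, 33 were within 10 kb and 88 over 100 kb, with a median of 57.6 kb. The smallest was 1950 bp between midpoints, in Dlgap1. In Syt1, a pair at chr10:108654650-108658070 had midpoints 2011 bp apart. Whether such neighbours are parts of 1 site was not tested.

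Widths overlapped those of peaks in shorter genes, and differed within the set. The median was 1367.5 bp (order-statistic 95% interval 1324 to 1449), compared with 1361 bp (1322 to 1395) in genes of 100 to 500 kb, 1385 bp (1321 to 1468) in shorter genes and 1295 bp (1271 to 1315) outside genes. Peaks in genes that held 5 or more had a median of 1536.5 bp (1396 to 1664), those in genes with 2 to 4 had 1320.5 bp (1236 to 1432) and single peaks 1244 bp (1127 to 1346). A width of 2 kb or more was reached by 51 of 178 peaks (28.7%, interval 22.1 to 35.9) in genes with 5 or more, and by 9 of 200 (4.50%, 2.08 to 8.37) in the other genes. With Dlgap1 and Syt1 left out of the first set, the share was 31 of 131 (23.7%, 16.7 to 31.9). Peaks with a neighbour within 10 kb had a median of 1874 bp (1664 to 2180), against 1336.5 bp (1297 to 1393) for the rest. Widths come from the authors' peak calling, which can join adjacent sites, and say nothing here of how strongly c-Fos was bound.

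**Figure D5:**
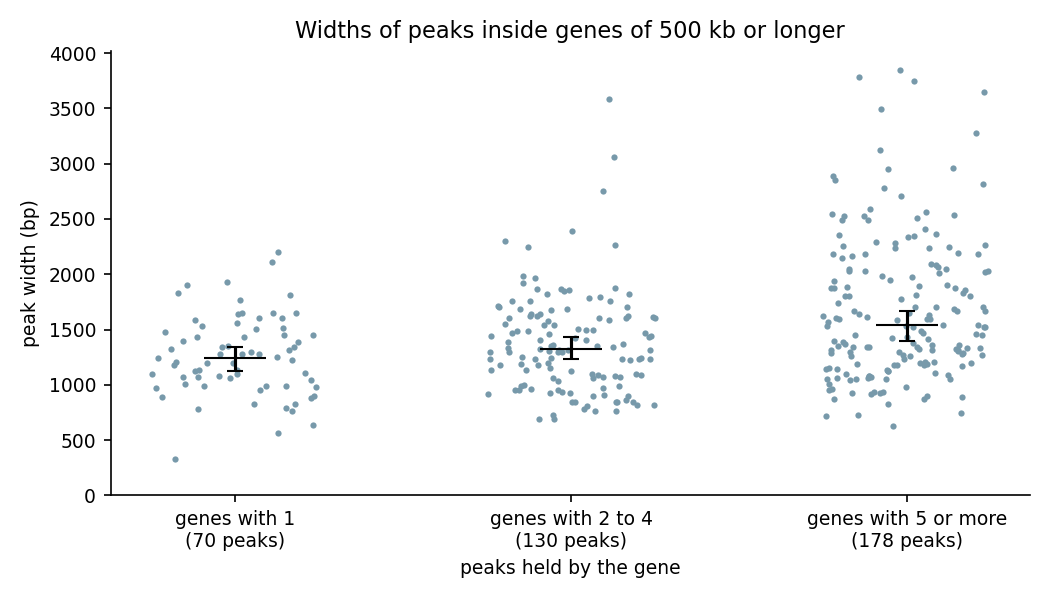
Width in bp (y axis) of each c-Fos peak inside genes of 500 kb or longer, by the number of peaks its gene holds (x axis); horizontal marks are medians and bars their order-statistic 95% intervals. Medians are 1244, 1320.5 and 1536.5 bp, and most peaks of 2 kb or wider lie in genes with 5 or more.

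The X chromosome contributed almost nothing. Its 11 very long genes held 2 peaks in 10.4 Mb (0.192 per Mb, 0.0232 to 0.693), 1 in Frmpd4 and 1 in Aff2, against 2.10 per Mb (1.89 to 2.32) in the autosomal ones. Dmd, the dystrophin gene and with 2390.4 kb the longest of all, had none, and neither had Il1rapl1 and Il1rapl2. Other locations on X were sparse too, at 0.270 per Mb in genes of 100 to 500 kb and 0.0830 outside genes. On autosomes, the longest genes without a peak were Fhit (1612.0 kb), Robo2, Gpc5 (1433.0 kb), Naaladl2 (1346.0 kb) and Cdh12 (1149.5 kb).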

How the data were processed

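CUT&RUN libraries of 12 samples in 4 groups were described by the sample labels, and groups were taken from the titles. The tools named in the submitters' processing notes are SEACR 1.1, bedtools 2.27.1, Trimmomatic 0.36 and Bowtie2 2.2.9, and the builds mm10 and sacCer3. What each did, with which settings, and how replicates were combined is not given in the sources used here. As deposited by the authors, the list holds peak positions with no header or score, so weaker peaks are missing to an unknown extent. It is attached to 1 sample and was used as a list of its group. One peak on an unplaced sequence was left out.

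Genes came from the RefSeq table of GRCm38.p6. Genes starting below 3000000 were left out as their coordinates may come from sequences outside the assembled chromosomes. Each position was assigned to the longest protein-coding gene over it, and positions within 1 kb of a protein-coding gene end were a class of their own. Lengths of classes were summed over the span of genes and peaks of each chromosome, without removing assembly gaps. Strand and start windows came from a RefSeq promoter table that matched 179 of 227 genes. It holds none on chromosome 18. Exact Clopper-Pearson, Poisson and order-statistic intervals at 95% used scipy 1.17.1. They cover counting error only. The assignment was tested on simulated peaks. No chance test was made, and PBS was not analysed here. Some genes that the rules below would name are not reported here.

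The 10 function lists held 361 genes, of which 359 matched. The members and lists were chosen with earlier results of these data known. Genes were named by these rules: at least 5 peaks, the 10 longest, the 5 densest, up to 4 leading genes per list, the 5 longest autosomal genes without a peak, and those with the widest or closest peaks. Other genes of the lists, paralogs, X-linked genes and genes at the length limit were named after their values were seen. Alternatives were other length and distance limits, all gene types, whole peaks inside the gene, merged peaks, the wider peaks alone, no peaks over 5 kb, and leaving out X or Dlgap1 and Syt1.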

Additional observations from a re-analysis of the deposited data

How the results depend on the processing

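No paired analysis was possible because single replicates have no values here, and none could be left out. The planned share of AP-1 letters in peaks, with its alternative, was not run, since no genome was used here. Of 101 recomputed values, 81 stayed within the interval of the reported one (for the peak number, within 1.5 times). This count includes settings that changed almost nothing. Leaving out peaks over 5 kb removed none, since the widest had 3846 bp. Requiring whole peaks inside the gene, or dropping the distance from gene ends, also kept all 378 peaks. Values under these settings could move little or not at all. A gene length of 1 Mb or more left 138 peaks, 1.74 per Mb, 72.9% of genes with a peak, 60.1% of peaks in the first 10 genes, 10.1% with a neighbour within 10 kb, 86.2% over 100 kb from both ends and 13.9% in the first of 5 gene segments. A length of 400 kb gave 26.2% in the first 10 genes and 73.6% over 100 kb from both ends. Keeping only peaks at or above the median width left 202, by construction, with 1.06 per Mb, 38.8% of all and 43.8% of listed genes with a peak, and a median width of 1703 bp; the first 10 genes then held 43.6%. Without Dlgap1 and Syt1 the density was 1.76 per Mb, the share in the first 10 genes 29.3% and that with a neighbour 9.06%. Neighbours within 1 kb were found for 0 peaks and within 50 kb for 45.0%. Where the construction does not show it, the cause was not tested. Depth is unknown, so the absence of a peak in a gene is not evidence that c-Fos is absent there.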

Other observations

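Some peaks lay in a further gene besides the very long one. Of the 378 midpoints, 17 (4.50%) also lay in a non-coding gene and 8 in another protein-coding gene. The share of length under such genes was not measured, so these counts have no background beside them. In Dlgap1, 3 lay in the long non-coding RNA gene Gm46581, and 2 more in Gm52855 inside Kcnd2. Within 10 kb of an annotated start of any gene were 26 of 375 peaks (6.93%, exact binomial 95% interval 4.58 to 9.99; chromosome 18 left out), against 78 of 747 (10.4%, 8.34 to 12.9) in genes of 100 to 500 kb. The median distance to such a start was 116.0 kb. Longer genes have less of their length near a start, and the share of length within 10 kb of one was not measured. The lower share in very long genes is therefore no finding about the peaks.

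Chromosomes differed in the density inside very long genes. Chromosome 17 had 7.01 peaks per Mb (5.01 to 9.55), and 26 of its 40 peaks lay in Dlgap1. Chromosome 10 had 4.03 per Mb (2.91 to 5.45), with 29 of 42 in Syt1 and Anks1b. Chromosome 15 had 0.526 per Mb (0.109 to 1.54), with peaks in 2 of 7 such genes.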
